A study of Mus musculus with 4 samples.

Results

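The transcriptome described here is that of mouse peritoneal macrophages cultured overnight with phosphate-buffered saline (PBS), the vehicle of a cytokine experiment. It was measured on 2 of the 4 arrays of the series, named here PBS replicates 1 and 2, and the other 2 arrays were not used. Female BALB/c mice aged 6 to 8 weeks received 2 ml of 3% thioglycolate into the peritoneal cavity, an irritant that draws leukocytes there, and exudate cells were harvested 4 days later. The cells were kept overnight in serum-free medium, and RNA came from the adherent cells, of which over 95% carried F4/80 according to the labels. The labels do not say whether the arrays came from separate cultures or animals, or from pooled mice, so the spread between them may be technical. Of the 10833 non-control probe sets with exactly 1 gene symbol, 300 (2.77%) were selected on their mean signal over both arrays, as the brightest. They belonged to 283 of 8251 genes, or 3.43%. Because the members were chosen by signal, their levels are a description and carry no test. A signal is the MAS5 intensity of a probe set in arbitrary units, and it depends on how well its probes hybridise as well as on the amount of RNA. Ranks therefore order the brightness of probe sets and not the number of transcripts. Each gene was placed by its brightest probe set, signals are given for replicate 1 and then replicate 2, and n is 2 arrays throughout.

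Macrophages are phagocytes that engulf microbes, dying cells and debris and break them down in lysosomes, which a proton pump acidifies and which hold proteases, glycosidases and lipases. Thioglycolate recruits blood monocytes that mature into large, vacuolated macrophages in the cavity, where they outnumber the resident peritoneal macrophages. Pattern recognition receptors let these cells switch on cytokine and chemokine genes, whose messages are mostly kept low without a stimulus.

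The brightest probe sets were led by lysosomal, ribosomal and iron storage genes. Prosaposin (Psap), the precursor of the saposins that help to degrade sphingolipids, ranked highest with signals of 11414 and 10348 (10881 ± 754, SD). Rpl41, a protein of the large ribosomal subunit, followed with 11280 and 10318. Cathepsin B (Ctsb), a lysosomal cysteine protease, gave 11022 and 10144 and ranked 3, and the ferritin heavy chain (Fth1), which stores iron, gave 10272.5 and 10058. All 4 were lower on replicate 2, by at most 1.10-fold.

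Of the 30 brightest genes, 8 were on the lysosomal lists, 7 on the lists of structural and matrix genes, 5 on the metabolic lists, 4 on the translation lists, 3 on the antigen presentation lists and 2 on the macrophage lists, with galectin-3 (Lgals3) on more than 1 list. Only Gnai2, an inhibitory G protein subunit, and Akr1a1, an aldo-keto reductase, were on none. Perilipin 2 (Plin2), which coats lipid droplets, gave 8795 and 8123 and ranked 9. Galectin-1 (Lgals1) gave 8643 and 7472, and galectin-3 gave 6668 and 6115. The macrophage elastase Mmp12 was bright on each of its probe sets, with 6378 and 5688 on one and 5586 and 6326 on the other. Cyba, the p22phox subunit of the NADPH oxidase, gave 7639 and 7023, and thioredoxin (Txn1) gave 7308 and 6831. The plot of the 30 brightest genes shows the values of both arrays. On each array the signal was also summed over the 10833 probe sets with exactly 1 gene symbol, and not over the whole array. Of this sum the 30 brightest probe sets held 9.94% and 9.43%, and the 300 held 40.3% and 40.1%.

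**Figure D1:**
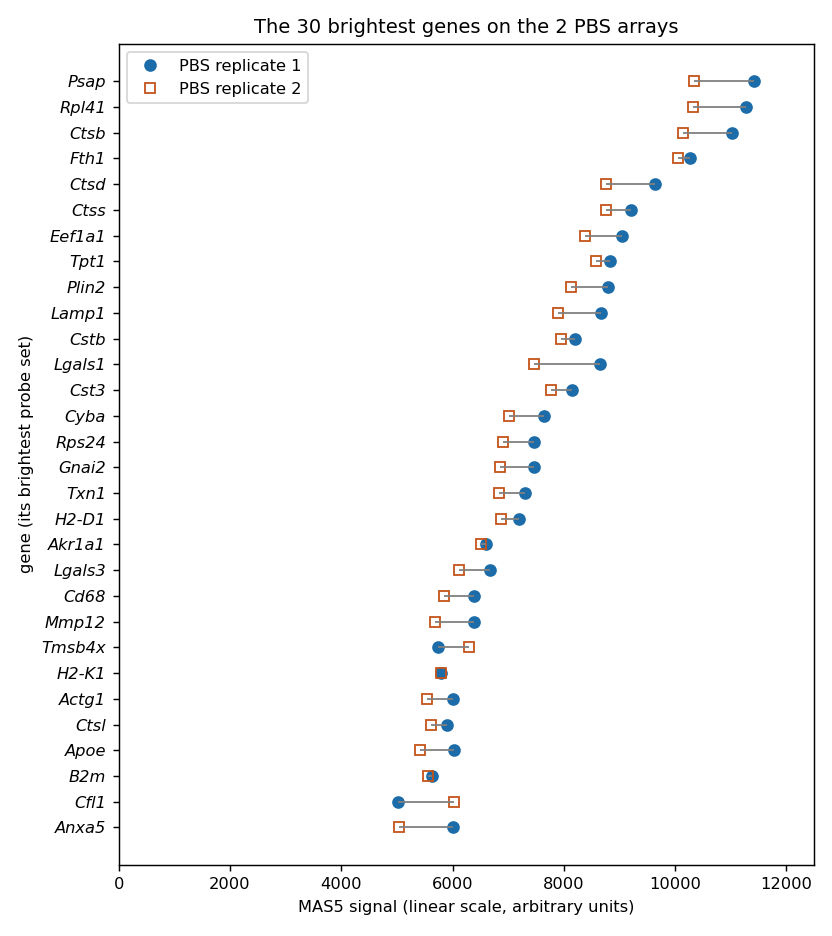
MAS5 signal (linear axis, arbitrary units) of the 30 brightest genes, each by its brightest probe set; filled circles are PBS replicate 1 and open squares PBS replicate 2, joined by a line. Psap, Rpl41, Ctsb and Fth1 lead, each at 10058 or more on both arrays, and only Tmsb4x and Cfl1 are higher on replicate 2.

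The cut at 300 fell where signals differed little between neighbours. The last probe sets inside it were those of Spg21 (1578 and 1354), Ndufb6 (1454 and 1441) and Naca (1266 and 1627), with a mean of 1446 at rank 300. The next ones outside were those of Rtn4 (1431 and 1456), Ap3s1 (1461 and 1425) and Napa (1498.5 and 1380). The arrays of Spg21 and of Naca lay further apart than the means on either side of the cut.

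Genes of the lysosomal lists, which include inhibitors of cathepsins, were frequent at the top of the ranking. Of 69 measured genes on 4 lysosomal lists, 32 (46.4%) had a probe set among the 300, and their median rank was 472, against 4696 over all genes. Among cathepsins, other lysosomal proteases and their inhibitors, 11 of 19 were among the 300. After Ctsb came cathepsin D (Ctsd), an aspartic protease, with 9633 and 8758, and cathepsin S (Ctss), which trims the invariant chain of MHC class II, with 9203 and 8754. The cathepsin inhibitors stefin B (Cstb) and cystatin C (Cst3) gave 8208 and 7956, and 8154 and 7765. The collagen-degrading cathepsin K (Ctsk), best known from osteoclasts, gave 1584 and 1694 at rank 265. The dimmest of this list were cathepsin G (Ctsg) of neutrophil granules at 2.7 and 1.3, cathepsin W (Ctsw) of cytotoxic lymphocytes at 5.3 and 6.2 and cathepsin F (Ctsf) at 22 and 60.2.

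Lysosomal membrane and sphingolipid activator proteins were the list with the highest median signal of all 44, at 2927. On it, 9 of 15 genes were among the 300, and each of the 15 had a mean of at least 134.7. Lamp1, a main glycoprotein of the lysosomal membrane, gave 8668 and 7887, the tetraspanin Cd63 gave 4932 and 4535, and Npc2, which carries cholesterol out of the lysosome, gave 3336 and 3769. The lower end of the list was formed by Laptm4b (144.5 and 124.9), Cd164 (428.9 and 556.5) and Scarb2 (513.5 and 562.8), the receptor that brings glucocerebrosidase to lysosomes.

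The vacuolar proton pump, which acidifies lysosomes, had 8 of 15 measured genes among the 300. The subunit Atp6v1b2 gave 5805 and 5147, Atp6v1a gave 4154 and 4445, and Atp6v0b gave 4022 and 3534. Tcirg1, a membrane subunit also used by osteoclasts, gave 1733 and 1431. The dimmest was Atp6v0a2 at 225.9 and 186, so that each measured subunit was above the median gene of the array at 64.4.

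Soluble lysosomal hydrolases for sugars and lipids were placed lower, with 4 of 20 among the 300 and a median signal of 408. Lysosomal acid lipase (Lipa), which frees cholesterol from its esters, gave 3645 and 4333. The alpha subunit of hexosaminidase (Hexa) gave 3847 and 3318.5, beta-glucuronidase (Gusb) 2821 and 2600.4, and the alpha-mannosidase Man2b1 1947 and 1526. Ppt1, a lysosomal thioesterase, was far below the rest at 4.4 and 6.8, and Gla and Ids, whose loss causes storage diseases, gave 78.1 and 64.0, and 68.5 and 78.8.

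Many lysosomal genes are known to carry the E-box CACGTG, the core of the element bound by TFEB, TFE3 and MITF, near their start sites. This feature was not used by the ranking, so the 250 bases before each RefSeq start were searched for it on both strands, which is the same for a palindrome. Of the 283 genes, 232 had a promoter in the table, as did 6572 of the 8251 genes on the array, and a gene was counted when any of its promoters matched. The E-box was present in 16 of 56 lysosomal genes (28.6%), against 9.94% of array genes, 6.02% of all promoters in the table and 3 of 96 genes (3.13%) on the inflammatory lists. Among the 300 as a whole the share was 12.9%. Within the lysosomal lists it was found in 7 of 27 genes among the 300 and in 9 of 29 outside them, so dimmer lysosomal genes carried it as well. The longer palindrome TCACGTGA, which contains CACGTG, was found in 7 of 56 lysosomal genes (12.5%), 2.16% of the 300 and 1.60% of array genes. Extended by a G before and a C after it, the palindrome was found in 1 of 56 lysosomal genes, 0 of the 27 among the 300, 0.43% of the 300 and 0.563% of array genes.

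The sites in the 7 lysosomal genes of the 300 are shown because they let their number and spacing be seen beside the signals. The stretches are from RefSeq on GRCm38.p6, 5′ to 3′ on the strand of the gene, with the E-box in capitals and flanks of up to 20 bases, cut at the ends of the window. Lamp1 lies at chr8:13159080-13159160 (+), Ctsd at chr7:142387900-142387945 (-), Atp6v0b at chr4:117887330-117887385 (-), Atp6v1a at chr16:44139365-44139410 (-), Ctsl at chr13:64370731-64370770 (-), Ctsa at chr2:164833741-164833772 (+) and Lgmn at chr12:102439116-102439161 (-).
Lamp1: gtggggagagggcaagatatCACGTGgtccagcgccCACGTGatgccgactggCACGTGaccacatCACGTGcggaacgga
Ctsd: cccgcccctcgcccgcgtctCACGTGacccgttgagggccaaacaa
Atp6v0b: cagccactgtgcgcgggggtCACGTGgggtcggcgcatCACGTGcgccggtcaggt
Atp6v1a: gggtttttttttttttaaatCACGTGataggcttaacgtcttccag
Ctsl: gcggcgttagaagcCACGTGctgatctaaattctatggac
Ctsa: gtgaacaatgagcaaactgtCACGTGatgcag
Lgmn: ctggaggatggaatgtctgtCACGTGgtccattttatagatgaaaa

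The Lamp1 promoter held 4 E-boxes, the outermost 61 and the innermost 15 bases before the start. Atp6v0b held 2, at 36 and 18 bases before the start, and Ctsd held 1 at 98 bases and another, not printed, at 245 bases. Ctsa had its site 12 bases before the start and Lgmn at 49, while those of Atp6v1a and Ctsl lay further out at 131 and 236 bases. In all, the 7 genes held 12 sites. A match describes the letters of a window and does not show that a factor binds there.

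Known macrophage genes were spread over most of the ranking. Of 27 measured genes on the macrophage identity list, 11 (40.7%) were among the 300, and 22 were brighter than a signal of 76.0. That level is the 90th percentile of 50 genes of unrelated tissues (nerve, retina, muscle, heart, liver, pancreas and gut), which 46.5% of all genes exceeded. The endosomal glycoprotein Cd68 gave 6378 and 5851, the pore-forming phagosomal protein Mpeg1 gave 5557 and 4926, and lysozyme (Lyz2) gave 4932 and 5094. The signalling adaptor Tyrobp (DAP12) gave 4858 and 4805, and the integrin chain Itgb2 gave 2948 and 3497. Cd14, the co-receptor for lipopolysaccharide, gave 1798.5 and 2702.

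Other known macrophage genes, among them some receptors used in flow cytometry, were dimmer. Adgre1, which encodes the F4/80 antigen used to describe these cells, gave 488.1 and 779.9 at rank 796. The receptor for macrophage colony-stimulating factor (Csf1r) gave 1037 and 1256.5, the lineage factor Spi1 (PU.1) gave 1013 and 1139.5, and Itgam (CD11b) gave 521 and 346.2. The low end of the list was formed by the scavenger receptor Marco at 2.3 and 2.2, the sialic acid receptor Siglec1 at 9.4 and 4.0 and the Fc receptor Fcgr3 at 29.1 and 35. No detection calls were used, so a low signal is not read as absence of the transcript.

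Markers of recruited macrophages ranked higher as a list than those of resident peritoneal macrophages. Of 8 measured genes on the list of monocyte-derived inflammatory macrophages, 5 were brighter than 76.0 and 1 was among the 300, with a median signal of 339. The acute phase protein Saa3 gave 2019 and 2223, the protease inhibitor Slpi gave 408.4 and 771.6, arginase 1 (Arg1) gave 287.1 and 427.9, and fibronectin (Fn1) 336.8 and 372.6. At its lower end were Vcan (10.4 and 8.0), Ccr2 (50.1 and 72.5) and Chil3 (61.9 and 76.7). Of 10 genes on the resident list, 2 were brighter than 76.0 and 0 were among the 300, with a median of 32.9. Over all genes 46.5% and 3.43% were so placed, and the median was 64.4. Gata6, the factor that defines resident peritoneal macrophages, gave 61.1 and 25.4, and the fatty acid binding protein Fabp7 was the brightest of this list at 257.8 and 577.4. Below it came Lbp (79.4 and 75.6), Cd5l (50.8 and 60.1) and Cxcl13 (56.8 and 39.5), and the lowest were Selp (3.8 and 3.7), F5 (4.1 and 4.1) and Tgfb2 (16.9 and 8.9).

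Antigen presentation was split by class. The class I heavy chains H2-D1 (7188 and 6874.5) and H2-K1 (5800 and 5797) and their partner beta-2 microglobulin (B2m, 5636 and 5567) were among the 30 brightest genes, and 3 of 11 genes of that list were among the 300. Probe sets of the heavy chains share probes with related class I genes, so their split between family members is uncertain, and without probe sets of this kind only 1 gene of the list was left there. Tapasin (Tapbp), which loads peptides, gave 909.1 and 877.2. Of 12 class II genes, 1 was among the 300, the thiol reductase Ifi30 at 2121 and 1953. The invariant chain Cd74 gave 1049.5 and 845.7, H2-DMa gave 538.4 and 494.6 and H2-Eb1 325.1 and 300.2. No complement gene of 13 was among the 300, beside 3.43% of all genes. The complement list had a median signal of 104.9, against 64.4 over all genes. On it C3ar1, the receptor for C3a, was highest at 1268 and 1023. Properdin (Cfp) gave 304.5 and 290, and C1qc, a chain of C1q that macrophages make, gave 287.7 and 251.8.

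Genes for lipid handling and for iron and redox control were bright in part. On the lipid list 7 of 24 genes were among the 300, led by Plin2 and by apolipoprotein E (Apoe, 6023 and 5424), which carries cholesterol out of macrophages. Lipoprotein lipase (Lpl), which releases fatty acids from triglycerides, gave 2951 and 3442. On the iron, haem and redox list 7 of 29 were among the 300. Besides Fth1, Cyba and Txn1, they included haem oxygenase 1 (Hmox1, 2900.4 and 3147) and Slc11a1 (2826 and 3028), a phagosomal metal transporter.

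On the lists used, glycolytic enzymes were placed higher than the respiratory chain. Of 13 genes on the glycolysis list, 8 were among the 300, with a median signal of 1631. They included Pgd, an enzyme of the pentose phosphate pathway. Lactate dehydrogenase A (Ldha) gave 5393 and 5557, pyruvate kinase (Pkm) 4681 and 4614, aldolase A (Aldoa) 3826 and 4199 and triose phosphate isomerase (Tpi1) 3488 and 3076.5. Of 43 respiratory chain genes, 9 were among the 300, with a median of 556. On that list the ATP synthase subunit Atp5l was highest at 3234.5 and 3173, before Cox6a1 at 1938 and 2556, Ndufb5 at 1886.5 and 2098 and Atp5a1 at 1957 and 1862. The list was incomplete. Atp5mpl (2554 and 2203), Atp5md (2138 and 2024.5), Cyc1 (1910 and 2060) and Ndufb6 (1454 and 1441) were among the 300 but on no list.

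Of 32 measured ribosomal protein genes, 18 (56.2%) were among the 300. After Rpl41 the brightest were Rps24 (7460 and 6910), Rplp0 (5603 and 5416) and Rps28 (4806 and 4602). Others were dim, down to a mean of 4.8, and 48 listed ribosomal genes were not analysed here. Elongation factor Eef1a1, which brings aminoacyl-tRNA to the ribosome, gave 9044 and 8385, and Tpt1, an abundant protein under translational control, gave 8823 and 8580. In total 6 of 24 translation factors were among the 300.

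The cytoskeleton of these motile cells was represented by 15 of 40 genes. Thymosin beta 4 (Tmsb4x), which holds actin monomers, gave 5730 and 6288, gamma actin (Actg1) gave 6011 and 5541, and cofilin (Cfl1), which severs filaments, gave 5026 and 6025. Actr3, a subunit of the Arp2/3 complex that branches filaments, gave 4525 and 4204. Calcium-dependent membrane binding proteins were also bright, with 9 of 17 annexin and S100 genes among the 300. Annexin A5 (Anxa5) gave 6011 and 5036.5, Anxa2 gave 5106 and 5147, S100a6 gave 5270 and 4801 and Anxa1, which limits inflammation, 5243 and 4750.

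Chaperones, the proteasome and matrix genes were less prominent than the cytoskeleton and annexin lists. Their shares among the 300 were 17.2%, 18.5% and 11.1%, beside 3.43% of all genes. Among chaperones 5 of 29 were in the 300, with the endoplasmic reticulum chaperone Hspa5 highest at 2001 and 2063. The proteasome list had 5 of 27, led by Psma3 (2159 and 2590). The proteasome subunits Sem1 (2513 and 2626) and Psmc6 (2223 and 1998) were among the 300 but on no list. On the matrix and matrix protease list 3 of 27 were in the 300, namely Lgals1, Lgals3 and Mmp12, and the urokinase receptor Plaur came next at 1247 and 1039.

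Genes on no list made up 134 of the 283. Families were also grouped after their values were seen, over listed and unlisted genes alike. They were drawn from the 283 genes only. Family members outside the 300 were not counted, so these numbers cannot be set against the 3.43% of all genes. Among the 283 genes there were 15 small GTPases or their regulators, with Arf1, which forms vesicle coats, highest at 4588.5 and 4667, followed by the oxidase and actin regulator Rac1 at 3641 and 2686. Among 5 heterotrimeric G protein subunits, Gnai2 gave 7457 and 6847 and the stimulatory subunit Gnas 4217 and 3881. A group of 9 held tetraspanins such as Cd63 and some other proteins that cross the membrane several times, and 3 genes encoded 14-3-3 proteins. In a group of 13 secreted proteins, coagulation factor VII (F7) was bright on both its probe sets, with 1868 and 1493 on one and 1731 and 1618 on the other. The membrane and secreted groups do not hold every such gene of the 283.

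Transcription factors of macrophages were found from the top to the bottom of the ranking. Of 39 measured, 6 were among the 300. Atf3, a stress-induced factor that restrains inflammatory genes, was the brightest at 4673 and 4584 and ranked 49. Jund, an AP-1 subunit, gave 3534 and 3833, Cebpa, a myeloid lineage factor, gave 1687 and 2303 and Id2, an inhibitor of basic helix-loop-helix factors, gave 1824 and 2109. Of 30 cell cycle and replication genes 1 (3.33%) was among the 300, beside 3.43% of all genes. It was the replication clamp Pcna at 1442 and 1690, and the list's median signal was 84.4, against 64.4 over all genes. Without replicate 2 the count among the 300 was 0. The next were the cyclin-dependent kinase inhibitor Cdkn1c (1252 and 1243) and Cdk4 (871.7 and 760).

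The listed inflammatory genes lay, as a group, where the genes of the array lay as a whole. Of 120 measured genes on 5 inflammatory lists, 4 (3.33%) were among the 300, beside 3.43% of all genes, and the median signal was 71.3, against 64.4 over all genes. A signal of 76.0 was exceeded by 58 of the 120, beside 46.5% of all genes. The 4 were the chemokine Ccl9, the interleukin 10 receptor chain Il10rb, the interferon-induced membrane protein Ifitm3 and the interleukin 1 receptor antagonist Il1rn. Ccl9 gave 3045 and 4854 at rank 67, Il10rb gave 2609 and 2210, Ifitm3 1935 and 2550 and Il1rn 1969 and 2342.5. Thus the brightest member of the cytokine list was an antagonist. These counts depend on which genes were listed. Ly6e (2410 and 2689) and Ifi27 (1379 and 1558) were among the 300 but on no list. Saa3 and Cd14 were counted on the macrophage lists.

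Several classical products of activated macrophages lay below these 4. Tumour necrosis factor (Tnf) gave 102.9 and 205, interleukin 1 alpha (Il1a) 292.1 and 553.7 and interleukin 1 beta (Il1b) 22.1 and 70.8. Interleukin 6 (Il6) gave 1.3 and 1.3, interferon gamma (Ifng) 0.7 and 2.0 and Csf2 2.9 and 1.4, the dimmest of the cytokine list. Inducible nitric oxide synthase (Nos2) gave 7.8 and 18.3 and cyclooxygenase 2 (Ptgs2) 6.0 and 2.3, both chosen after their values were seen, as were Tnf and Il1b. The growth factors Tgfb1 (665.3 and 635) and Igf1 (642.9 and 657), which macrophages secrete in repair, were the brightest of the list after Il1rn.

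Among 24 chemokines, Ccl9 was followed by the monocyte attractant Ccl2 (470.3 and 496.5) and by Ccl6 (359 and 473.7) and the neutrophil attractant Cxcl5 (501.9 and 186). The dimmest were Cxcl9 (2.6 and 1.3), Ccl11 (2.2 and 3.8) and Xcl1 (3.1 and 4.2). Receptors were brighter as a list, with a median of 111 over 31 genes. The GM-CSF receptor chain Csf2ra gave 1206 and 1137, and C3ar1 and Csf1r were close to it. Tgfbr2, the type II receptor for TGF-beta, was the dimmest at 3.7 and 5.9, before the lymph node homing receptor Ccr7 (4.0 and 9.8) and Cxcr2 (11.2 and 9.8).

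None of 15 genes of the Toll-like receptor and NF-kB list was among the 300, beside 3.43% of all genes. The list's median signal was 138, against 64.4 over all genes. The NF-kB subunit Rela gave 932.9 and 841.1, the kinase Irak1 341.7 and 333.7 and the inhibitor Nfkbia 161.7 and 240.2. Rel was at 4.8 and 0.7. Interferon-stimulated genes had a median of 94.7 over 23 genes. On that list the immunoproteasome subunits Psmb8 (726.1 and 828.3) and Psmb9 (282.5 and 413.3) came after Ifitm3. Irf8 lay between them at 351.5 and 367. The lowest were Iigp1 (5.4 and 9.1), Ifit2 (8.2 and 12.5) and Mx1 (8.9 and 11.8).

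**Figure D2:**
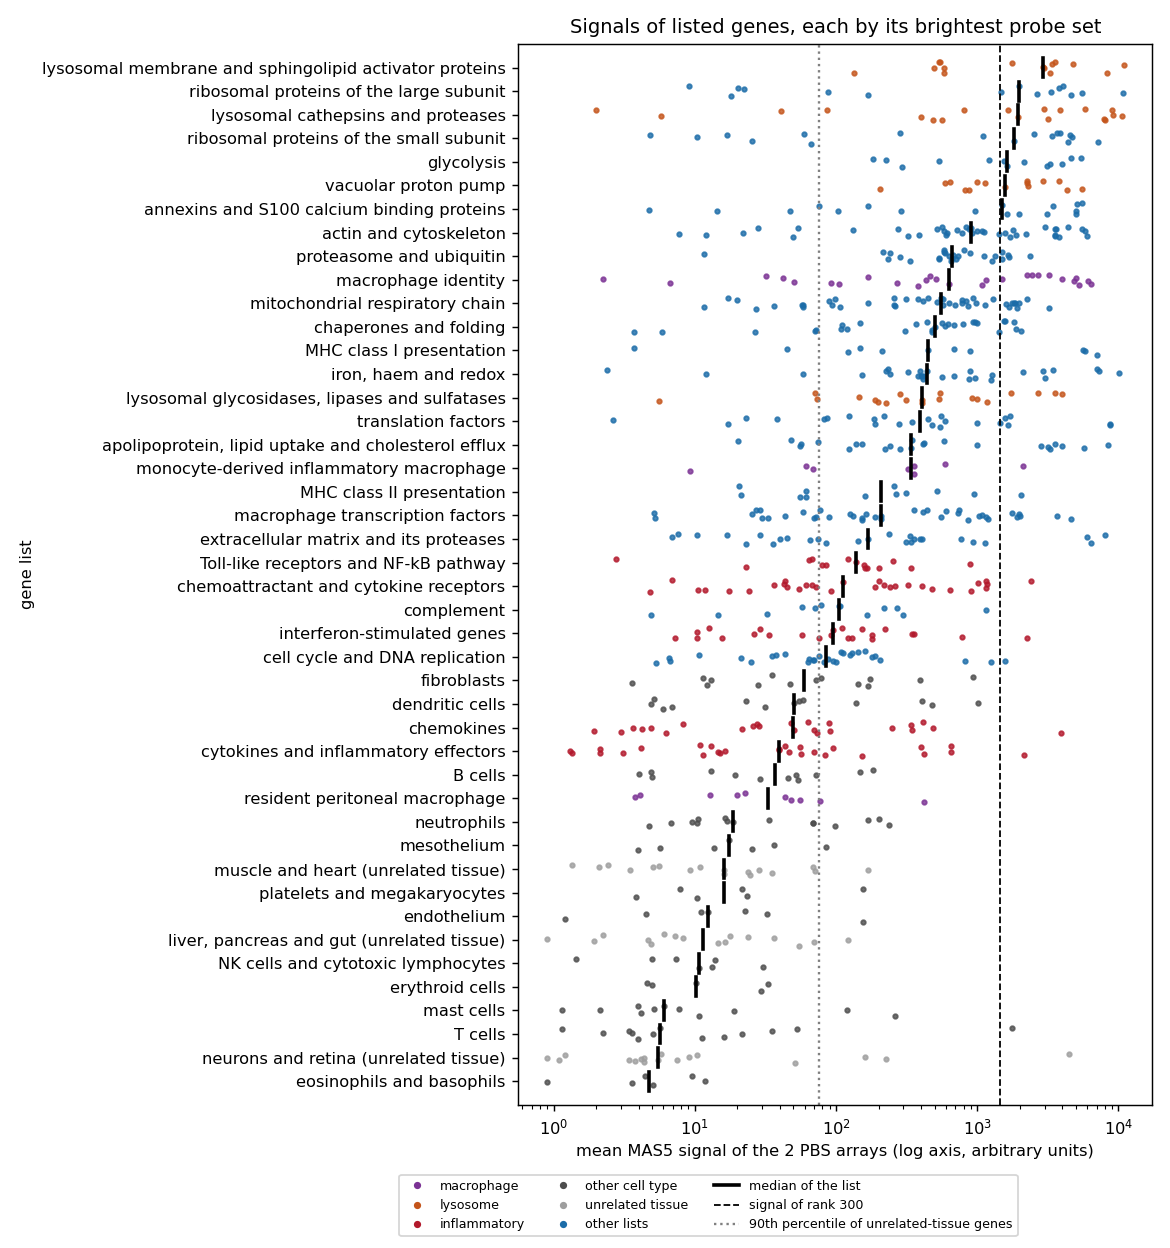
Mean MAS5 signal of the 2 PBS arrays (log axis, arbitrary units) for the measured genes of 44 lists, each point a gene by its brightest probe set and each black bar a list's median. Lysosomal membrane, cathepsin and ribosomal lists have medians above the dashed line of rank 300, the 5 inflammatory lists have medians from 39.8 to 138, and all lists of other cell types have medians below the dotted line at 76.0.

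Promoters of the inflammatory genes were searched in the same way. The TATA box TATAAA was looked for on both strands of the 250 bases before the start. It was found in 26 of 96 inflammatory genes (27.1%), 39 of 232 genes of the 300 (16.8%), 10.9% of array genes and 12.4% of all promoters. Between 20 and 40 bases before the start, where a TATA box is known to act, it was present in 10 of 96 inflammatory genes (10.4%), 12 of 232 genes of the 300 (5.17%) and 3.94% of array genes. The AP-1 site TGAGTCA was found in 12 of 96 (12.5%), in 5.17% of the 300 and in 4.73% of array genes. The ETS element GAGGAAGT of PU.1 was found in 2.16% of the 300 and 2.66% of array genes. A consensus NF-kB site of 10 bases was found in 3 of 96 inflammatory genes, 3 of 232 genes of the 300 and 0.243% of array genes. CCAAT was present in 29.2% of the inflammatory genes, 37.9% of the 300 and 40.1% of the array genes outside the 300. Mean promoter GC content was 53.7% ± 9.21 (SD over genes) in the inflammatory genes, 58.7% ± 9.23 in the 300 and 58.8% ± 9.81 in array genes.

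TATA boxes are shown for 4 of the 10 inflammatory genes with TATAAA between 20 and 40 bases before the start, chosen after their values were seen, so that the letters around the box can be read. TATAAA is in capitals, and sequences are from RefSeq on GRCm38.p6, 5′ to 3′ on the gene's strand: Il1a at chr2:129309984-129310019 (-), Irf8 at chr8:120736312-120736347 (+), Tnf at chr17:35202016-35202051 (-) and Il1b at chr2:129371150-129371185 (-).
Il1a: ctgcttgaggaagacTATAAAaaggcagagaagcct
Irf8: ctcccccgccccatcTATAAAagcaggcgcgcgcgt
Tnf: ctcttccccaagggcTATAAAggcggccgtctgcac
Il1b: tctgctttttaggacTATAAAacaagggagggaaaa

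The boxes began 32, 31, 29 and 31 bases before the starts of Il1a, Irf8, Tnf and Il1b. Bright genes carried such boxes as well: H2-D1 had TATAAA 26 bases before its start, Anxa1 at 32 and Cebpa at 30.

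Markers of other cell types were dimmer than all genes as a group, but the fibroblast and dendritic cell lists lay nearer to all genes. Over 12 lists the median signal of 114 measured genes was 14.9, and 21 of them exceeded 76.0. Among the 300 there was 1 (0.877%), beside 3.43% of all genes. The median was 59.6 on the fibroblast list and 50.45 on the dendritic cell list, against 64.4 over all genes. In these bulk samples fewer cells of a type and less RNA per cell cannot be told apart. The gene among the 300 was Il7r, the interleukin 7 receptor on the T cell list, with 2060 and 1474 at rank 238. Ranked on replicate 2 alone, Il7r was outside the 300, which left 0 genes of these lists there. The other 12 measured T cell genes were below 76.0, with Zap70 next at 68.5 and 37.6, then Cd4 at 52.8 and 17.3 and Cd6 at 17.0 and 26.2. The defining chains Cd3d (6.1 and 0.7), Cd3e (10.7 and 11.8) and Cd3g (0.8 and 1.5) were all dim, at 11.8 or less on both arrays.

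Lymphoid and granulocyte lists were similar. No NK cell gene of 7 and no eosinophil or basophil gene of 6 exceeded 76.0, where the highest were granzyme B (Gzmb, 32.8 and 27.8) and Ccr3 (12.2 and 11.5). Of 12 B cell genes 2 did so, immunoglobulin M heavy chain (Ighm, 214.2 and 150.4) and Cd22 (131 and 166.6). Of 15 neutrophil genes 4 did so, led by gelatinase B (Mmp9, 137 and 338.2), Csf3r (214.9 and 188), S100a8 (128.7 and 210.9) and Lcn2 (95.6 and 102.7). The neutrophil antigen Ly6g gave 9.0 and 11.7. Of 11 mast cell genes 2 exceeded 76.0, the chymase Cma1 (251.8 and 269.4) and the tryptase Tpsb2 (125.3 and 112.1), while the protease Cpa3 gave 24.7 and 13.1 and the receptor Kit 9.3 and 2.8.

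Among dendritic cell genes, Itgax (CD11c) gave 1022.5 and 991.9, Fscn1 gave 544 and 412.6 and Cd83 gave 429.1 and 385.5, while the lineage factor Zbtb46 gave 4.4 and 7.6. Of 14 fibroblast genes 6 exceeded 76.0, beside 46.5% of all genes. Decorin (Dcn), a matrix proteoglycan, gave 1130.5 and 746.8 at rank 512, and the collagen chains Col1a2 and Col3a1 gave 375.9 and 407.7, and 246.9 and 90.7. Pdgfra, a receptor of mesenchymal cells, gave 232.6 and 116.9. Endothelial and platelet lists each had 1 gene above 76.0, von Willebrand factor (Vwf, 150.7 and 162.4) in both cases, the mesothelial list had Upk3b (92.9 and 76), and the erythroid list had none.

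Neuropeptide Y (Npy), placed on the list of neuronal genes, was the one gene of 50 from unrelated tissues among the 300. It gave 4748 and 4235 at rank 53. The next on these lists were Eno2 (286.2 and 164), Ryr1 (140.8 and 197.5) and Mbp (132.6 and 185.9), and 45 of the 50 were under 100, with a median of 8.68. The high value of Npy was seen on both arrays, from 1 probe set.

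The arrays agreed closely at the top of the ranking and less so further down. Over all 10833 probe sets Pearson's r of log2(signal + 15) was 0.983 and Spearman's rho 0.969, and among the 300 they were 0.960 and 0.933. These are correlations across probe sets, which are not independent replicates. Each array's own 300 brightest shared 282 probe sets, and 18 of the 300 were outside the own 300 of 1 array, down to rank 390. The median ratio between arrays was 1.09-fold among the 300 and 1.24-fold over all. It was wider at low signal, from 1.08-fold for the 30 brightest to 1.60-fold past rank 7000.

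A difference over 2-fold between arrays was seen for 0 of the 300, for 3.12% of the 6501 probe sets whose mean reached the 40th percentile, 26.75, and for 15.1% of all. Among the 30 brightest probe sets 28 were higher on replicate 1, against 51.5% of the 6501 probe sets and 128 of the 270 at ranks 31 to 300. The widest ratio among the 300 was that of Ccl9 at 1.59-fold, higher on replicate 2. Cd14 (1798.5 and 2702), Cd52 (1.48-fold), Clec4d (1.47-fold) and a second probe set of Fth1 (1.45-fold) were also higher on replicate 2. Higher on replicate 1 were the asparaginyl endopeptidase Lgmn (2320 and 1542), Myl12b (1.49-fold), Wdr92 (1.43-fold), Adam8 (1.42-fold) and Il7r (1.40-fold).

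**Figure D3:**
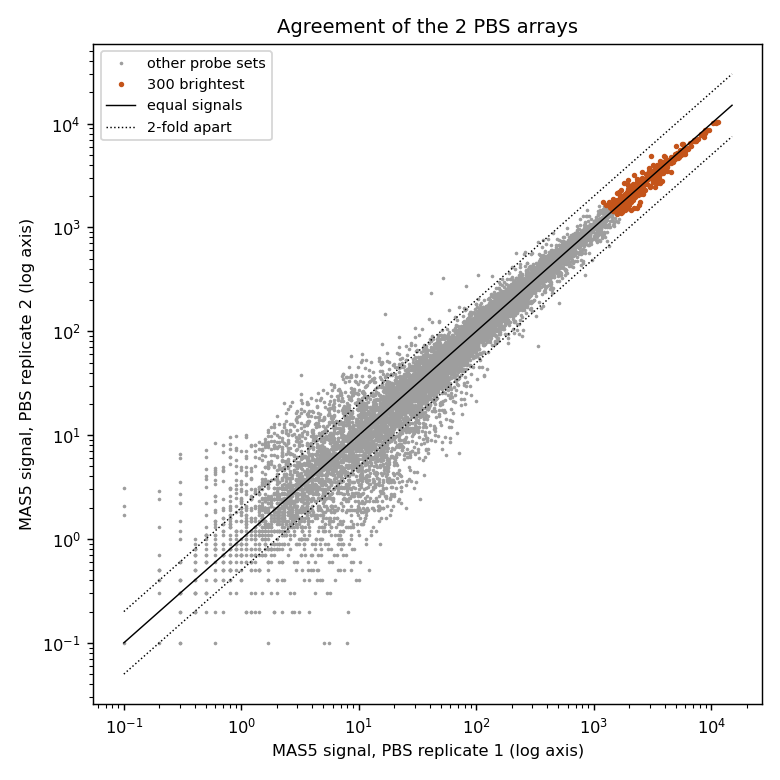
MAS5 signal on PBS replicate 2 against replicate 1 (both axes log, arbitrary units) for 10833 probe sets, with the 300 brightest in orange, equal signals as a solid line and 2-fold differences as dotted lines. The 300 all lie between the dotted lines, and the scatter widens toward low signals, where 15.1% of all probe sets differ over 2-fold.

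Some lists leaned to 1 array. Among genes at or above the 40th percentile, 49.2% were higher on replicate 2 and 50.6% on replicate 1. Of 17 interferon-stimulated genes, 15 were higher on replicate 2, with a median log2 difference of 0.23, and Gbp2, an interferon-induced GTPase, gave 78 and 166.5. All 7 measured genes of monocyte-derived macrophages above that level were higher on replicate 2, with a median of 0.52. Of 15 cytokine genes 11 were higher there, among them Tnf and Il1a, and of 26 proteasome genes 20, with a median of 0.17.

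Other lists leaned to replicate 1. All 10 class II presentation genes above that level were higher there, with a median log2 difference of -0.30, and the largest was that of H2-Ea at 343.2 and 190.7. Over the same arrays the summed signal of the dendritic cell markers was 2343 and 2200, and that of the B cell markers 652 and 606. Gene by gene these lists did not lean to replicate 1. Above that level 4 of 8 dendritic cell genes and 3 of 7 B cell genes were higher there, with medians of -0.016 and 0.095. Of 10 fibroblast genes 8 were higher on replicate 1 (median -0.49), with Col3a1 2.72-fold apart, and the summed signal of all 14 was 2478 and 1759, none at 0. Quantile normalization left these medians at 0.24, 0.49, 0.17, -0.29 and -0.45 for the interferon, monocyte-derived, proteasome, class II and fibroblast lists. With 1 group of 2 arrays these differences have no test.

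Control probe sets differed between the arrays too. The ratio of 3′ to 5′ probe sets was 1.11 and 1.12 for beta actin and 0.80 and 0.84 for Gapdh, so it was alike. For the transferrin receptor it was 2.24 and 4.33, from lower signals. These were 355.2 and 203.3 at the 3′ end and 158.9 and 46.9 at the 5′ end. The 3′ probe set of 18S ribosomal RNA gave 247.7 and 1066, and spiked hybridisation controls were dimmer on replicate 2, such as the 5′ probe set of CreX at 3054 and 1941. Their part in the differences between the lists was not tested.

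**Figure D4:**
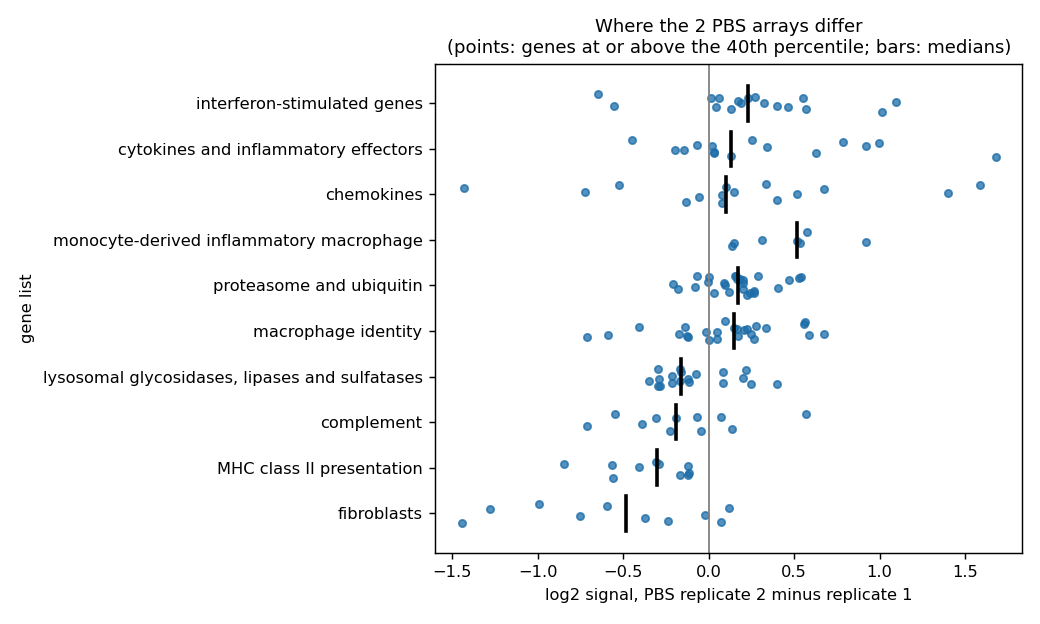
Difference in log2 signal, PBS replicate 2 minus replicate 1, for genes at or above the 40th percentile on 10 lists; points are genes and black bars list medians. The interferon and monocyte-derived lists lie mostly to the right of 0, with medians of 0.23 and 0.52, and the class II and fibroblast lists to the left, at -0.30 and -0.49.

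Probe sets of one gene often disagreed by far more than the arrays did. Of the 283 genes, 91 had further probe sets with that symbol, and for these the brightest exceeded the dimmest by a median of 19.8-fold, with 53 over 10-fold apart and 24 with a dimmest value below 26.75. Ctsb had 4 probe sets, from 11022 and 10144 down to 44.9 and 8.8. A second probe set of Cd68 gave 1.1 and 1.4, that of Lyz2 18.1 and 14.7 and that of Apoe 8.2 and 1.9. By contrast 16 genes had at least 2 probe sets among the 300, and H2-D1 had 3.

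The same limit applies to genes that were dim here on all their probe sets. Beta actin (Actb) gave 37.5 and 69.7 on one probe set with its symbol and 38.5 and 39.9 on another, while the control probe sets for the same transcript gave 11426 and 9824 at the 3′ end. Vimentin (Vim), an intermediate filament of macrophages, gave 23.5 and 20.5 and the chaperone calreticulin (Calr) 1.3 and 6.1. These 3 genes were chosen after their values were seen. Of the 300, 69 (23%) had an identifier that marks shared or fewer probes, against 21.0% of all probe sets.

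**Figure D5:**
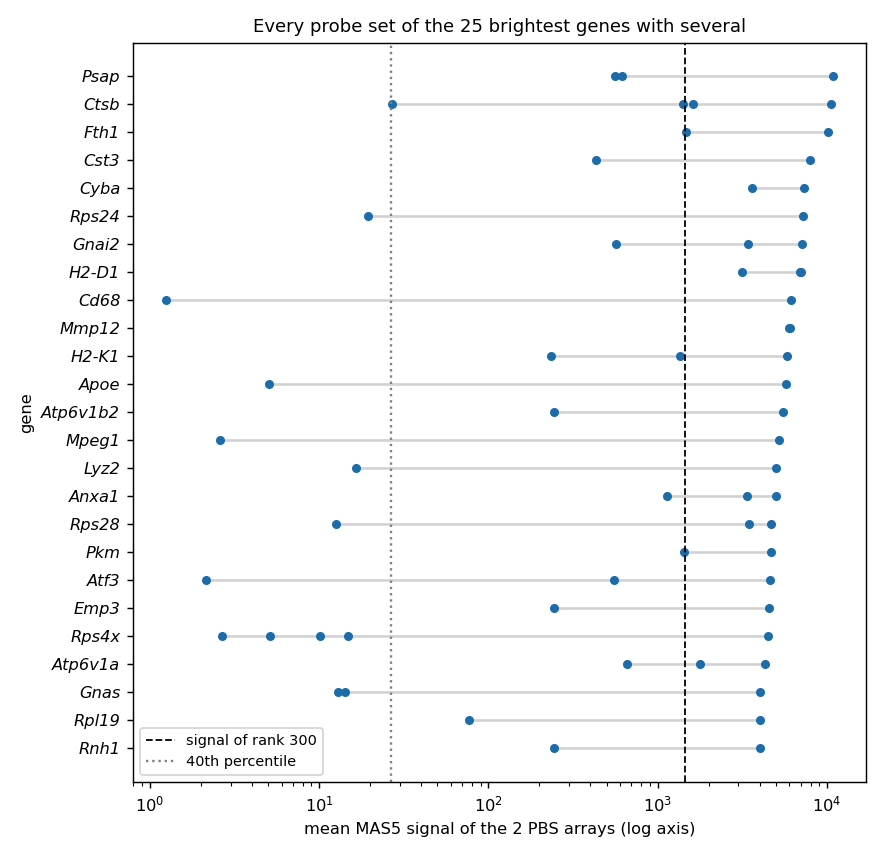
Mean MAS5 signal of the 2 PBS arrays (log axis, arbitrary units) of every probe set of the 25 brightest genes with several; points are probe sets joined by a line per gene, the dashed line is the signal of rank 300 and the dotted line the 40th percentile. Mmp12 and H2-D1 lie wholly to the right of the dashed line, while Cd68, Apoe and Mpeg1 each have a probe set below 10.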

How the data were processed

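Per the submitters' processing notes, which name no version, the deposited probe set intensities of the 2 arrays come from MAS5. MAS5 combines perfect-match and mismatch probes into an intensity on a linear scale. Their 2% trimmed means were 150.1 on both arrays, so no further scaling was applied. Detection calls and scan dates were not used here, and the number of arrays limits the precision. Median signals were 47.5 and 45.1, and 79 values were identical, so both arrays were kept.

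Of 12488 probe sets, 66 are controls, 10833 carry 1 gene symbol, 396 several and 1193 none. Symbols were looked up in a GRCm38.p6 gene table, where 10817 were found and 0 changed. Probe sets were ranked by mean signal. Logs were taken as log2(signal + 15), 15 being 10% of the trimmed mean. Each gene took its brightest probe set. Python 3.11.15, pandas 2.3.3, numpy 2.4.6 and scipy 1.17.1 were used, and the scripts were checked on simulated data.

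The members, the 44 lists (991 genes) and the rule for named genes were chosen with earlier results of these data known. The rule names the 30 brightest genes, up to 4 brightest genes per list, up to 3 dimmest of the macrophage, lysosomal and inflammatory lists, the 10 widest ratios between arrays among the 300 and 3 probe sets on either side of rank 300. Genes named outside it were chosen after their values were seen. Listed genes without a probe set of their own symbol, and protein features, were not analysed here. Alternatives covered the ranking scale, normalization, probe sets per gene, shared-probe identifiers, the pseudocount, the number of brightest probe sets and leaving out each array.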

Additional observations from a re-analysis of the deposited data

How the results depend on the processing

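No paired analysis was possible because the results come from 1 group of arrays and from no test. Of the 300 probe sets, 299 were kept when ranked on log2 values, 300 after quantile normalization, 236 over all non-control probe sets and 291 with either array left out. Pearson's r was 0.961 with no pseudocount and signals floored at 1, and 0.976 to 0.988 otherwise. Each array's own 300 shared 273 to 279 probe sets under 3 alternatives chosen after seeing the data. Lysosomal genes numbered 31 to 32 and ribosomal genes 17 to 18 with an array left out. Inflammatory genes rose to 8 among the 500 brightest. Genes of other cell types numbered 0 among the 200 brightest, 2 among the 500 and 0 to 1 with an array left out, since Il7r lay outside the 300 without replicate 1. Among 308 values for single lists and gene counts 289 differed from the reported value by at most 1.5 times and 19 by more, changes to or from 0 included. Past rank 7000, 35.0% of probe sets differed over 2-fold between the arrays, so the order of dim genes is uncertain.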

Other observations

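Genes of the 300 outside the 44 lists covered further functions, named here after their values were seen. Crip1, a small LIM domain protein, gave 5245 and 4636 on the 2 arrays and ranked 42. Gabarap, which joins autophagosome membranes, gave 4180 and 4279, and Snx3, a sorting nexin of endosomes, gave 3583 and 3587. Beta-catenin (Ctnnb1) gave 3666 and 3759, and the amyloid precursor protein App gave 3506 and 3501. Tspo, a protein of the outer mitochondrial membrane, gave 2961 and 3767, the copper chaperone Atox1 3180 and 2931, and the paired receptor Lilr4b 2990 and 3135. These values have no comparison and no test. In all, 103 of the 283 genes were on no list and in none of the families grouped afterwards, and 236 of the 300 probe sets were still among the 300 brightest when every non-control probe set was ranked.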
